A study of Danio rerio with 6 samples.

Results

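The Period, Rev-erb and Nfil3 genes are repressors of the circadian clock, and their transcripts were examined in whole zebrafish larvae 48 hours after embryonic alcohol exposure (EAE). The genes were taken by symbol: *per1a*, *per1b*, *per2* and *per3*, the Rev-erb genes *nr1d1*, *nr1d2a* and *nr1d2b*, and the Nfil3 genes *nfil3*, *nfil3-5* and *nfil3-6*. All 10 have a row among the 30713 named rows of the count table, and all 10 passed the filter on low counts. They were named with earlier results of these larvae known, so their differences between groups are given as a description. The calls from the fit across all genes are stated as counts, and a p-value is printed for a member only where leaving out a pool ended its call.

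RNA-Seq was performed on 6 pools of 30 whole wild-type AB larvae at 7 dpf. The 3 control pools were kept in 0% EtOH and the 3 EAE pools in 1% EtOH, begun at 12 hpf and ended at 5 dpf, after which both groups were fed in EtOH-free water until collection. AB is a common laboratory strain, and neither group carries a mutation or transgene. The labels describe siblings divided among tubes. The study's results speak of 3 independent groups of larvae, and its methods describe combined clutches. It is therefore not settled whether the pools are separate clutches, and the tests measure the spread between these pools.

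In the vertebrate clock, CLOCK and BMAL proteins activate the Period and Cryptochrome genes, whose proteins return to the nucleus and inhibit CLOCK and BMAL. The REV-ERB proteins, nuclear receptors that bind heme, repress BMAL genes through the element that ROR proteins use to activate them. NFIL3 is a basic leucine zipper repressor that in mammals competes with the activators TEF, HLF and DBP for D-box elements. In zebrafish many tissues hold clocks that light sets directly, and *per2* is a light-induced member of the Period family. The transcripts of these genes vary over the day, and neither the labels nor the study's methods give the clock time of collection or the light schedule.

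Counts on named genes totalled 17264955 to 23638705 per pool. Levels are counts scaled to library size after edgeR's TMM normalization (CPM), with SD over the 3 pools of a group, and are compared only within a gene because transcript lengths were not used. Sums of CPM over a list are compared only between pools, and genes with high CPM weigh most in them. Each log2 fold change is EAE over control, SE is its standard error, and BH is the Benjamini-Hochberg adjustment over all tested genes. Markers of neurons, photoreceptors, muscle, liver, pancreas, skin and intestine all had counts in these whole-animal pools. In RNA from whole larvae, fewer cells of a type and less RNA per cell cannot be told apart.

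Of the 10 genes, 6 were lower in EAE larvae at an adjusted p-value under 0.05 in the fit across all genes (quasi-likelihood F test of edgeR, p-values adjusted by Benjamini-Hochberg), a call made for 6.95% of the 21617 genes tested. They were *per2*, *nr1d1*, *nr1d2a*, *nr1d2b*, *nfil3-5* and *nfil3-6*. No member was called higher. At an unadjusted p-value under 0.05, 8 were lower and 0 higher with each of edgeR, DESeq2's Wald test and limma-voom. At that unadjusted threshold edgeR had 3098 of the 21617 tested genes lower and 3129 higher. In 9 of the 10 genes all 3 EAE pools lay below all 3 control pools, an arrangement that 16.0% of all tested genes showed, and the exception was *nfil3*. The median log2 fold change of the 10 genes was -0.27, against 0.00077 over all tested genes. The summed level of the 10 genes was 1390 to 1522 CPM in control pools and 1161 to 1246 CPM in EAE pools. In this sum *per1b*, *per3* and the Rev-erb genes weigh most, and *per2* and the Nfil3 genes little.

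**Figure D1:**
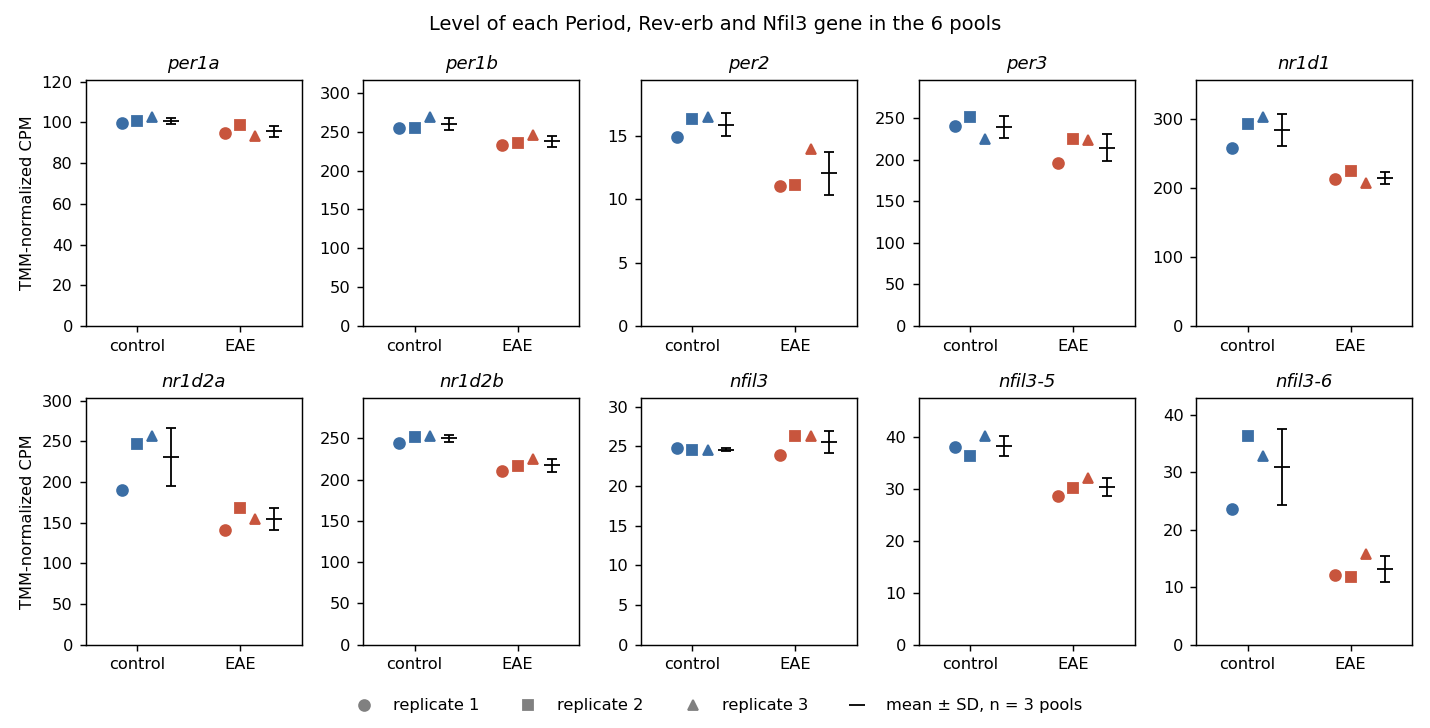
TMM-normalized CPM (vertical axes, each starting at 0) of the 10 Period, Rev-erb and Nfil3 genes in control (blue) and EAE (red) pools, with the replicate shown by the symbol and the mean ± SD of 3 pools in black. The groups are apart in every panel but that of *nfil3*, narrowly so for *per1a*, *per2* and *per3*, and the widest relative difference is that of *nfil3-6*.

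Among the Period genes, whose proteins bind Cryptochromes and hold back CLOCK and BMAL, *per2* was the one called lower. Its level was 14.9, 16.3 and 16.5 CPM in control pools 1, 2 and 3 and 11.1, 11.1 and 14.0 CPM in EAE pools 1, 2 and 3. EAE replicate 3 lay close to the controls, 0.880 CPM below the lowest of them, and the other EAE pools were well apart. Group means were 15.9 ± 0.883 CPM for controls against 12.1 ± 1.68 CPM for EAE larvae (SD, n = 3 each), which was 24.3% lower (log2 fold change -0.40, SE 0.096). The gene had 224 to 339 counts per pool, so counting error alone gives a coefficient of variation of 5.98%. Without EAE replicate 1 the log2 fold change was -0.34 and *per2* no longer passed (BH-adjusted p = 0.057, quasi-likelihood F test of edgeR).

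The other 3 Period genes did not pass. Their EAE pools also lay below the control pools, as they did for 16.0% of all tested genes. The level of *per1b* was 255, 255 and 269 CPM in control pools 1, 2 and 3 and 233, 235 and 246 CPM in EAE pools 1, 2 and 3, a gap of 9.53 CPM between the groups. Its log2 fold change was -0.13 (SE 0.050, 95% interval -0.23 to -0.023). The level of *per3* was 241, 251 and 225 CPM in controls and 196, 224 and 223 CPM in EAE larvae, so the groups were separated by 0.735 CPM. EAE replicate 1 was the low pool. The log2 fold change of *per3* was -0.16 (SE 0.060, 95% interval -0.28 to -0.031) with all pools and -0.093 without EAE replicate 1.

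The gene *per1a*, a paralog of *per1b* whose mammalian ortholog is also induced by glucocorticoids, had the smallest difference of the family. It was at 99.5, 100.6 and 102 CPM in control pools 1, 2 and 3 and at 94.7, 98.7 and 93.2 CPM in EAE pools 1, 2 and 3. The groups lay side by side, 0.756 CPM apart. Its log2 fold change was -0.078 (SE 0.049), and the 95% interval, -0.18 to 0.024, reaches from a small fall to a slight rise. The ratio of *per1a* to *per1b* within a pool was 0.388 ± 0.0062 for control against 0.402 ± 0.0207 for EAE pools (SD, n = 3 each), and the groups overlapped.

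The 3 Rev-erb genes among the members fell in EAE larvae. The further Rev-erb copies *nr1d4a* and *nr1d4b*, described at the end, had log2 fold changes of -0.016 and 0.18 and did not pass. The gene *nr1d2a*, a zebrafish copy of *NR1D2*, had the widest fall of the family. Its level was 190.5, 246 and 257 CPM in control pools 1, 2 and 3 and 141, 167 and 154 CPM in EAE pools 1, 2 and 3. Control replicate 1 stood below the other controls but still 23.0 CPM above the highest EAE pool. Group means were 231 ± 35.6 CPM for controls against 154 ± 13.2 CPM for EAE larvae (SD, n = 3 each), which was 33.3% lower (log2 fold change -0.58, SE 0.085).

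The gene *nr1d1*, which encodes REV-ERB alpha, was at 258, 292 and 302 CPM in control pools 1, 2 and 3 and at 212, 224 and 207 CPM in EAE pools 1, 2 and 3. Control replicate 1 was again the lowest control, and the gap between the groups was 33.9 CPM. Group means were 284 ± 23.2 CPM for controls against 214 ± 8.47 CPM for EAE larvae (SD, n = 3 each), which was 24.5% lower (log2 fold change -0.40, SE 0.059). With control replicate 1 left out the log2 fold changes were -0.47 for *nr1d1* and -0.71 for *nr1d2a*.

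The other *NR1D2* copy, *nr1d2b*, showed a smaller and more even difference. It was at 245, 252 and 253 CPM in control pools 1, 2 and 3 and at 209.8, 217 and 225 CPM in EAE pools 1, 2 and 3. The pools of each group lay close together and the groups were 20.2 CPM apart. Group means were 250.0 ± 4.48 CPM for controls against 217 ± 7.37 CPM for EAE larvae (SD, n = 3 each), which was 13.1% lower (log2 fold change -0.20, SE 0.049).

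Within a pool, the ratio of *nr1d2a* to *nr1d2b* was 0.778, 0.977 and 1.01 in control pools 1, 2 and 3 and 0.672, 0.772 and 0.687 in EAE pools 1, 2 and 3, so the groups were apart but control replicate 1 and EAE replicate 2 nearly met. The ratio of *nr1d2a* to *nr1d1* was 0.740, 0.844 and 0.851 in the same control pools and 0.665, 0.749 and 0.746 in the same EAE pools, where the groups overlapped. Such a ratio depends on transcript length, and only its change between pools can be read. Whether the copies differed in their response was not tested.

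The Nfil3 genes differed most from one another. The gene *nfil3-6* was at 23.6, 36.4 and 32.9 CPM in control pools 1, 2 and 3 and at 12.1, 11.7 and 15.8 CPM in EAE pools 1, 2 and 3. Control replicate 1 was the low control, and even so lay 7.89 CPM above the highest EAE pool. Group means were 31.0 ± 6.58 CPM for controls against 13.2 ± 2.22 CPM for EAE larvae (SD, n = 3 each), which was 57.4% lower (log2 fold change -1.23, SE 0.13). The gene had 469, 628 and 678 counts in control pools 1, 2 and 3 and 282, 237 and 313 counts in EAE pools 1, 2 and 3, enough that counting error is small beside the difference. Among the 21617 tested genes its log2 fold change ranked 13 from the lowest.

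The paralog *nfil3-5* fell by less. Its level was 38.0, 36.3 and 40.2 CPM in control pools 1, 2 and 3 and 28.6, 30.1 and 32.1 CPM in EAE pools 1, 2 and 3. No pool stood apart within its group, and the groups were 4.21 CPM apart. Group means were 38.2 ± 1.92 CPM for controls against 30.3 ± 1.74 CPM for EAE larvae (SD, n = 3 each), which was 20.8% lower (log2 fold change -0.34, SE 0.064).

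The gene *nfil3* itself was at 24.8, 24.5 and 24.5 CPM in control pools 1, 2 and 3 and at 23.9, 26.3 and 26.3 CPM in EAE pools 1, 2 and 3. EAE pools lay on both sides of the controls. Its log2 fold change was 0.051 (SE 0.067, 95% interval -0.089 to 0.19), an interval that leaves out falls of the size fitted for *nfil3-5* and *nfil3-6*. The ratio of *nfil3-6* to *nfil3* within a pool was 1.26 ± 0.276 for control against 0.517 ± 0.0770 for EAE pools (SD, n = 3 each). The ratio of *nfil3-6* to *nfil3-5* was 0.622, 1.00 and 0.820 in control pools 1, 2 and 3 and 0.423, 0.389 and 0.491 in EAE pools 1, 2 and 3. The ratio of *nfil3-5* to *nfil3* was 1.55 ± 0.0811 for control against 1.19 ± 0.0389 for EAE pools (SD, n = 3 each). None of these 3 ratios overlapped between the groups, but the ratios only restate the levels given above. Whether the Nfil3 copies differed in their response was not tested.

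Set in order of their log2 fold changes, the 10 genes ran from *nfil3-6* over *nr1d2a*, *nr1d1*, *per2*, *nfil3-5*, *nr1d2b*, *per3*, *per1b* and *per1a* to *nfil3*. The 95% interval of *nfil3-6*, -1.50 to -0.96, overlapped that of no other member. The interval of *nr1d2a*, -0.76 to -0.41, overlapped those of *nr1d1* (-0.53 to -0.28), *per2* (-0.60 to -0.20) and *nfil3-5* (-0.47 to -0.20), so their order is within the error. The interval of *nr1d2b*, -0.31 to -0.10, lay above that of *nr1d2a* and also overlapped those of *nr1d1*, *per2* and *nfil3-5*. Differences between members were not tested.

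The pools of one group were not equally even for all members. The coefficient of variation over control pools was 21.3% for *nfil3-6* and 15.4% for *nr1d2a*. Counting error alone, taken at the mean count of all 6 pools, gives 4.8% and 1.61%. The coefficient over control pools was 0.743% for *nfil3*, below the 4.45% that counting error gives on the same basis, and 1.5% for *per1a*. In the EAE pools it was 16.8% for *nfil3-6* and 13.9% for *per2*, and from 2.93% to 8.59% for the rest. Control replicate 1 was the lowest control for 7 of the 10 genes, as it was for 33.0% of all tested genes, and EAE replicate 1 was the lowest EAE pool for 7, as it was for 36.0% of all tested genes.

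**Figure D2:**
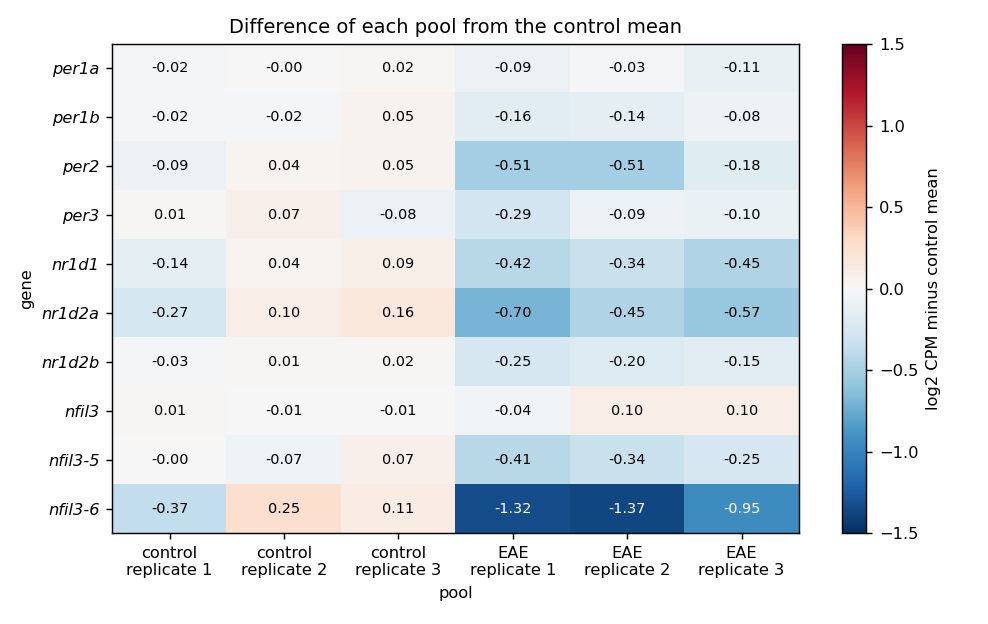
Difference of each pool from the control mean of the same gene on the log2 CPM scale (prior count 2), with genes in rows, pools in columns and blue for lower values. EAE pools range from -1.37 for *nfil3-6* in EAE replicate 2 to 0.10 for *nfil3*, and control replicate 1 is at -0.37 for *nfil3-6*, -0.27 for *nr1d2a* and -0.14 for *nr1d1*.

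Leaving out each pool in turn kept the sign of the log2 fold change for all 10 genes. Of the 6 genes called lower, *nr1d1*, *nr1d2a*, *nr1d2b*, *nfil3-5* and *nfil3-6* passed in all 6 such fits, and *per2* passed in 5 of them. The log2 fold change ranged from -1.39 to -1.11 for *nfil3-6*, from -0.71 to -0.50 for *nr1d2a*, from -0.47 to -0.35 for *nr1d1* and from -0.38 to -0.29 for *nfil3-5*. For *nr1d2b* it ranged from -0.23 to -0.18.

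**Figure D3:**
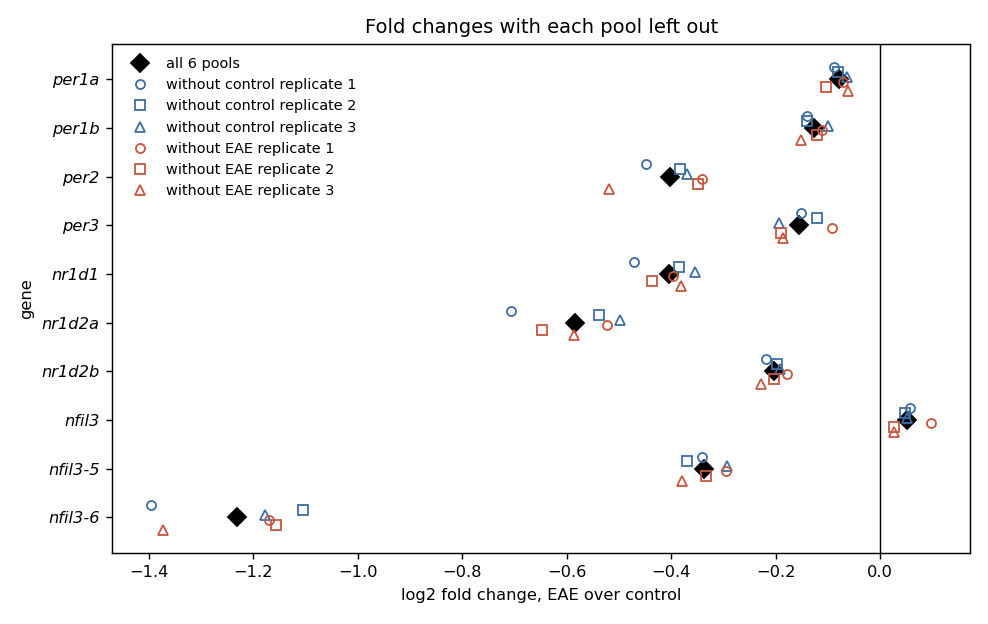
Log2 fold change of EAE over control (horizontal axis) for each of the 10 genes with all 6 pools (black diamonds) and with each pool left out (open symbols, blue for a control and red for an EAE pool left out). All points of *nfil3-6* lie between -1.39 and -1.11, and the points of *nfil3* lie between 0.027 and 0.098.

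The other genes of the clock were taken from lists by function. Of 39 tested genes, 16 fell and 0 rose in EAE larvae past an adjusted p threshold of 0.05 in edgeR, beside 6.95% called lower and 7.22% called higher over all tested genes. At an unadjusted p-value under 0.05, 25 were lower and 0 higher, beside 3098 lower and 3129 higher of all 21617 tested genes in edgeR. DESeq2's Wald test called 12 lower and 0 higher, and limma-voom called 16 lower and 0 higher. The median log2 fold change of the 39 genes was -0.18. Without EAE replicate 1, 10 of them passed as lower.

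The Cryptochrome list holds the partners of the Period proteins together with related photolyase-like genes, and 6 of its 8 genes fell in edgeR's test (4 in DESeq2's Wald test). The Cryptochrome gene *cry1ba* was at 193, 186 and 176 CPM in control pools 1, 2 and 3 and at 130.3, 137 and 147 CPM in EAE pools 1, 2 and 3. All EAE pools were well below the controls, and the log2 fold change was -0.42 (SE 0.055; BH-adjusted p = 6.6e-05, quasi-likelihood F test of edgeR). The genes *cry1aa*, *cry1ab* and *cry1bb* had log2 fold changes of -0.34, -0.32 and -0.46, and their SEs were 0.054, 0.057 and 0.12. The Cryptochrome gene *cry2*, at -0.18, and *cry5*, which encodes a photolyase-related protein, at -0.46, passed with all pools. With a pool left out, *cry2* passed only without EAE replicate 3 (BH-adjusted p = 0.054 to 0.17 in the other 5 edgeR fits) and *cry5* only without EAE replicate 2 (BH-adjusted p = 0.051 to 0.16), while *cry1bb* missed without control replicate 1 or 2 or EAE replicate 1 or 2 (BH-adjusted p = 0.056 to 0.088). The genes *cry4* and *cry-dash*, at -0.10 and -0.13, did not pass.

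The ROR genes, which encode activators that bind the same element as REV-ERB, fell as well, in 5 of 6 cases. The gene *rorb* was at 8.32, 7.24 and 7.77 CPM in control pools 1, 2 and 3 and at 5.28, 4.65 and 5.13 CPM in EAE pools 1, 2 and 3. The groups were clearly apart, with a log2 fold change of -0.63 (SE 0.12; BH-adjusted p = 0.0016, quasi-likelihood F test of edgeR). The genes *rorca*, *rorcb*, *roraa* and *rorab* had log2 fold changes of -0.32, -0.37, -0.22 and -0.22, and their SEs were 0.064, 0.078, 0.059 and 0.052. The row named *rorc* averaged 2.04 CPM over control and 1.95 CPM over EAE pools and did not pass, at -0.037 (95% interval -0.51 to 0.44). Without control replicate 1 or without EAE replicate 1, *roraa* did not pass (BH-adjusted p = 0.092 and 0.095, same edgeR test), at -0.19 and -0.16.

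Of the CLOCK and BMAL genes, the activators of the loop, 0 of 6 passed (edgeR's quasi-likelihood test), and 3 were lower at an unadjusted p-value under 0.05. DESeq2's Wald test and limma-voom also called 0, with 2 and 3 lower at an unadjusted p-value under 0.05. At that unadjusted threshold edgeR had 3098 of all 21617 tested genes lower. The BMAL gene *arntl1a* was at 12.0, 11.9 and 11.7 CPM in control pools 1, 2 and 3 and at 8.76, 10.8 and 9.71 CPM in EAE pools 1, 2 and 3. The groups did not overlap, yet the log2 fold change of -0.28 (SE 0.095) missed the threshold (BH-adjusted p = 0.054, quasi-likelihood F test of edgeR). The other BMAL1 copy, *arntl1b*, had a log2 fold change of -0.32 (SE 0.12; BH-adjusted p = 0.084, same edgeR test). Both passed when genes were tested without a filter on low counts, and with a pool left out *arntl1a* passed only without EAE replicate 2 (-0.36) and *arntl1b* only without EAE replicate 3 (-0.43). The genes *clocka*, *clockb*, *npas2* and *arntl2* were at -0.18, -0.14, -0.057 and 0.058, with 95% intervals from -0.39 to 0.025, -0.28 to -0.0070, -0.28 to 0.16 and -0.29 to 0.40.

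The bHLH and CIART repressors, which act on CLOCK and BMAL beside the Period and Cryptochrome proteins, fell in 2 of 4 cases. The gene *bhlhe40* was at 349.9, 353 and 354 CPM in control pools 1, 2 and 3 and at 298, 305 and 314 CPM in EAE pools 1, 2 and 3. The controls were nearly level and all above the EAE pools, with a log2 fold change of -0.20 (SE 0.049; BH-adjusted p = 0.0096, quasi-likelihood F test of edgeR). The gene *ciarta* fell by 0.27 on the log2 scale (SE 0.050), and *bhlhe41* and *ciartb*, at -0.11 and -0.065, did not pass.

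The PAR bZIP genes, whose products activate the D-box elements that NFIL3 represses, fell in 3 of 6 cases in edgeR's test and in 1 of 6 in DESeq2's Wald test. The gene *tefa* fell by 0.25 on the log2 scale (SE 0.048; BH-adjusted p = 0.0027, quasi-likelihood F test of edgeR), with 180 CPM as its control mean and 152 CPM as its EAE mean. The genes *hlfb* and *dbpa* had log2 fold changes of -0.44 and -0.16, but with a pool left out *dbpa* passed in 0 of the 6 edgeR fits (BH-adjusted p = 0.073 to 0.17) and *hlfb* only without control replicate 1 or EAE replicate 2 (BH-adjusted p = 0.079 to 0.18 in the other fits). The genes *tefb*, *hlfa* and *dbpb*, at -0.15, -0.14 and -0.060, did not pass with all pools. With a pool left out, *tefb* passed in 2 of the 6 edgeR fits, and *hlfa* and *dbpb* in 0. Among 8 tested genes for the kinases and ubiquitin ligase parts that act on Period and Cryptochrome proteins, 0 passed (edgeR's quasi-likelihood test). Their log2 fold changes ran from -0.20 for *fbxl3l* to 0.078 for *csnk1da*, and DESeq2's Wald test and limma-voom called 0. At an unadjusted p-value under 0.05, 2 were lower in edgeR, beside 3098 of all 21617 tested genes. With a pool left out, *csnk1e* passed as lower in 1 edgeR fit.

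**Figure D4:**
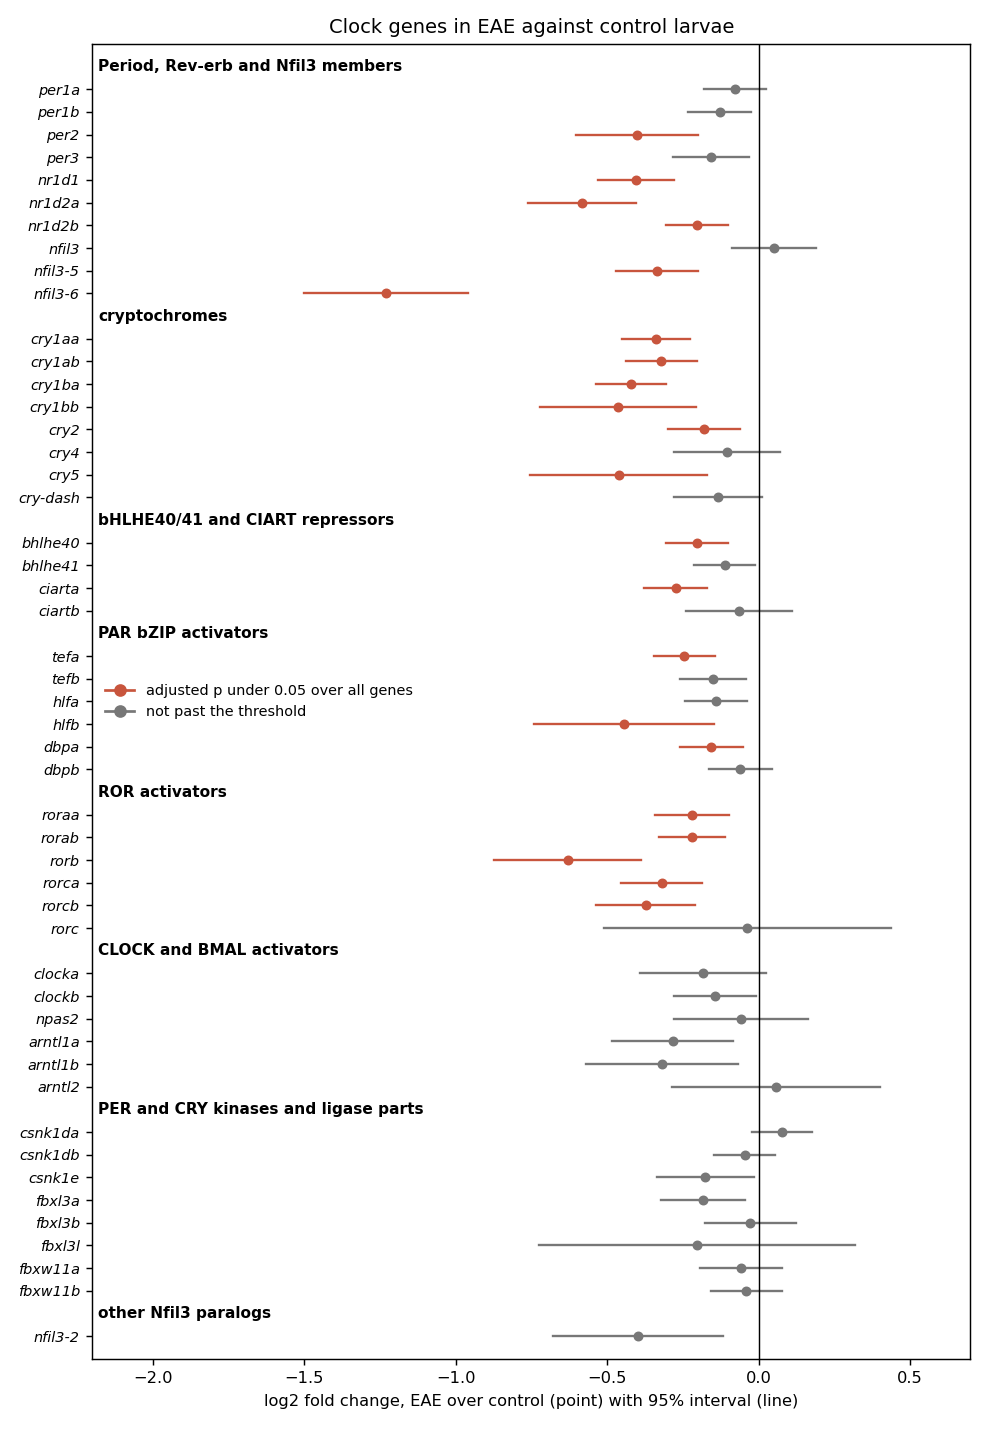
Log2 fold change of EAE over control (points) with its 95% interval (lines) for the 10 Period, Rev-erb and Nfil3 genes and 39 other clock genes grouped by function, in red where the adjusted p-value over all genes was under 0.05 and in grey otherwise. All 22 red points lie below 0, from -1.23 for *nfil3-6* to -0.16 for *dbpa*, and the CLOCK and BMAL group holds grey points only.

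Other gene groups moved in the same larvae. Over all tested genes 6.95% were called lower and 7.22% higher in edgeR at an adjusted p-value under 0.05. Among 13 glucocorticoid receptor targets, one of which is *per1a*, 9 fell and 1 rose past that threshold. Their median log2 fold change was -0.54, with a range from -1.24 for *ddit4* to 0.18 for *mt2*. Their summed level was 1807 to 2280 CPM in control pools and 1390 to 1515 CPM in EAE pools, and the lowest pools were control replicate 1 for 12 of the 13 and EAE replicate 3 for 7 of the 13. For the Period, Rev-erb and Nfil3 genes they were control replicate 1 for 7 of 10 and EAE replicate 1 for 7 of 10, with EAE replicate 3 lowest for 2 of 10. Over all tested genes the lowest control was replicate 1 for 33%. The lowest EAE pool was replicate 1 for 36% and replicate 3 for 31.2%. Among 21 immediate early genes, 15 fell and 1 rose, with a median of -0.64 and summed levels of 1146 to 1393 CPM in controls and 637 to 727 CPM in EAE larvae. The part of these groups in the lower clock transcripts was not tested, and the lists were chosen with earlier results known.

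Markers of neurons and photoreceptors were lower too. For comparison, the members called lower had log2 fold changes from -1.23 for *nfil3-6* to -0.20 for *nr1d2b*. Those not called ran from -0.16 for *per3* to 0.051 for *nfil3*. Over all tested genes 6.95% were called lower and 7.22% higher. At an unadjusted p-value under 0.05 edgeR had 3098 of the 21617 tested genes lower and 3129 higher. Of 15 neuron markers 10 fell and 0 rose (edgeR's quasi-likelihood test; 14 lower and 0 higher at an unadjusted p-value under 0.05, and 10 lower with both DESeq2's Wald test and limma-voom). Their median was -0.21, their range -0.28 to -0.068, and their summed level 3540 to 3603 CPM in control and 2882 to 3207 CPM in EAE pools. The lowest control was replicate 2 for 9 of the 15 and replicate 1 for 2 of them. EAE replicate 1 was the lowest EAE pool for 14 of the 15, against 36.0% of all tested genes. Of 11 photoreceptor markers 5 fell, with a median of -0.18 and a range from -0.50 for *pde6h* to -0.047 for *opn1lw2*. Their summed levels were 3270 to 3517 CPM in control and 2854 to 3160 CPM in EAE pools. Control replicate 1 was the lowest control for 8 of the 11, and EAE replicate 1 the lowest EAE pool for 9. Of 9 liver markers 5 rose, with a median of 0.20, while 0 of 9 muscle, 0 of 7 exocrine pancreas and 0 of 6 intestine markers passed (1, 1 and 0 at an unadjusted p-value under 0.05 with edgeR; 1, 0 and 0 called by DESeq2's Wald test and by limma-voom). The skin epithelium list had 1 gene higher and 2 lower of 5. The part of these groups in the lower clock transcripts was not tested.

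The genes whose profile over the 6 pools was most like that of a member were found by the root mean square distance between log2 CPM profiles, each centred on its own mean, for the 3 members with the largest fold changes. For *nfil3-6* they were *gpr186*, *slc14a2* and *klf9*, at distances of 0.17, 0.20 and 0.21. The Krüppel-like factor gene *klf9*, a glucocorticoid receptor target, was at 67.3, 98.0 and 90.8 CPM in control pools 1, 2 and 3 and at 43.5, 46.8 and 48.5 CPM in EAE pools 1, 2 and 3. These genes were picked for profiles like that of *nfil3-6*, so the low control replicate 1 and the separated groups of *klf9* follow from the choice. A link between *klf9* and *nfil3-6* was not tested. For *nr1d2a* they were the cytokine signalling suppressor gene *socs1a*, *guca1c* and *osgin2*, at 0.062, 0.069 and 0.073. For *nr1d1* they were *si:dkey-175g6.2*, *sall3a* and *ankrd49*, at 0.035, 0.038 and 0.038.

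All 10 symbols were found in RefSeq's gene table for assembly GRCz12tu. The authors aligned to an older build, so this table served for neighbours only. The paralogs *nfil3-6* and *nfil3-2* are neighbours there, and *nfil3-5* lies next to *nfil3-3*. The gene *nfil3-2* averaged 8.51 CPM over control and 6.47 CPM over EAE pools, a log2 fold change of -0.40 (SE 0.13) that did not pass (BH-adjusted p = 0.054, quasi-likelihood F test of edgeR), and it passed with no filter on low counts, with the replicate block and without control replicate 1 or EAE replicate 3. How reads shared by such copies were counted is not given in the sources used here, so the split between the Nfil3 copies, between *per1a* and *per1b* and between *nr1d2a* and *nr1d2b* is uncertain. Of all tested genes 14.2% were called in either direction. Among 12 tested protein-coding neighbours of the members a similar share passed the threshold in edgeR, 2 genes, both lower. They were the thyroid hormone receptor gene *thrb* beside *nr1d2b*, at -0.42 (SE 0.076; BH-adjusted p = 0.0014, same edgeR test), and *itm2cb* beside *per2*, at -0.31 (SE 0.061; BH-adjusted p = 0.0031, same edgeR test). In their whole spans *per1b* overlaps *dthd1* and *nfil3-5* overlaps *rgl3a*, which had log2 fold changes of -0.18 and -0.044. The span of *nfil3-5* also overlaps that of *LOC137495917*, which had no tested value. Whether the exons of these genes overlap was not examined. Without the strand setting it is unknown how reads from any shared stretch were counted.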

How the data were processed

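RNA-Seq counts of 6 pools were used. The authors used STAR and build GRCz10 to align single-end reads of poly-A selected RNA; the deposited values are unnormalized counts for each gene symbol. The counting program, annotation, use of strand and handling of multiply aligned reads are not given in the sources used here. The row without a gene name (1.49% to 1.57% of counts) was left out. The 17 rows with names turned into dates are not named. Within-group pairs of pools differed beyond counting noise (chi-square per degree of freedom 3.54 to 5.06).

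Counts were filtered with filterByExpr, scaled by TMM (factors 0.986 to 1.02) and tested with edgeR 4.0.16's quasi-likelihood F test in R 4.3.3, with Benjamini-Hochberg adjustment over 21617 genes at a threshold of 0.05. The standard error (SE) is the absolute log2 fold change divided by the square root of F. The median SE was 0.096. The edgeR step was tested on simulated counts. DESeq2 1.42.0, limma-voom (limma 3.58.1), other scalings and filters, a replicate block and leaving out each pool were the alternatives.

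The members and lists were chosen with earlier results of these data known. Named were the members, clock list genes past the threshold, every CLOCK, BMAL and ROR gene and the 3 nearest profiles of 3 members; neighbouring genes, *nr1d4a* and *nr1d4b*, *klf9*, and clock genes short of the threshold were named after their values were seen. Listed symbols without a row were not analysed here. With 3 pools against 3, an exact permutation test of 1 gene cannot give a two-sided p below 0.1, so none was run. Promoter and protein sequences were not used here.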

Additional observations from a re-analysis of the deposited data

How the results depend on the processing

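The count of the Period, Rev-erb and Nfil3 genes called lower was 6 under DESeq2's Wald test, limma-voom, RLE size factors, library size alone, both other filters and the replicate block, and 5 to 6 with a pool left out. The other clock genes called lower numbered 12 with DESeq2's Wald test, 15 with the replicate block, 18 with no filter and 10 to 17 with a pool left out (10 without EAE replicate 1). Over all tested genes DESeq2's Wald test called 940 higher and 891 lower, against 1560 and 1503 with edgeR; with a pool left out 924 to 1497 were higher and 717 to 1499 lower, fewest without EAE replicate 1. Scaling moved the median of all genes by less than 0.1. Genes short of the threshold changed sign with a pool left out: *npas2* (-0.13 to 0.073), *arntl2* (-0.11 to 0.16), *rorc* (-0.25 to 0.18), *ciartb* (-0.12 to 0.0057), *fbxl3b* (-0.077 to 0.015), *fbxl3l* (-0.39 to 0.0093) and *nr1d4a* (-0.11 to 0.039); fewer samples are fitted there, and no other cause was tested. Of 663 values for single genes under alternatives, 605 kept their direction and side of the threshold. Over all tested genes the deviations of same-numbered pools were not positively correlated (-0.0086, -0.034 and -0.093). These correlations cannot settle whether such pools share a clutch, so the replicate block is given only as an alternative fit. It called 1216 genes higher and 1120 lower. Counting error is larger for genes with few counts, and alone gives *per2* a coefficient of variation of 5.98% per pool. The coefficient of *per2* was 5.56% over control pools and 13.9% over EAE pools. The part of depth in its calls was not tested.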

Other observations

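Further Rev-erb copies, *nr1d4a* and *nr1d4b*, were looked up after the table was opened. The level of *nr1d4a* was 5.31 ± 0.33 CPM for control against 5.27 ± 0.62 CPM for EAE pools (SD, n = 3 each). The level of *nr1d4b* was 12.5, 13.3 and 12.8 CPM in control pools 1, 2 and 3 and 13.5, 15.7 and 14.4 CPM in EAE pools 1, 2 and 3. All EAE pools lay above the controls, a direction opposite to that of *nr1d1*, *nr1d2a* and *nr1d2b*, with a log2 fold change of 0.18 (SE 0.084) that did not pass (BH-adjusted p = 0.16, quasi-likelihood F test of edgeR). Whether its response differed from theirs was not tested.

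The pineal gland is a light-sensitive clock organ of fish that makes melatonin. Of 7 tested pineal and photoreceptor genes, 1 fell, the homeobox gene *otx5*, with a log2 fold change of -0.26 (SE 0.084; BH-adjusted p = 0.044, quasi-likelihood F test of edgeR) and pools that overlapped between the groups. Over all tested genes 6.95% were called lower, and DESeq2's Wald test called 0 of the 7 lower, with 1 lower at an unadjusted p-value under 0.05. Over all genes DESeq2's Wald test had 2177 lower at that unadjusted threshold. The gene *aanat2*, which encodes the pineal enzyme that sets the rhythm of melatonin synthesis, was at 2.32, 2.84 and 3.06 CPM in control pools 1, 2 and 3 and at 2.23, 2.72 and 2.21 CPM in EAE pools 1, 2 and 3. The groups overlapped, and the 95% interval of its log2 fold change, -0.58 to 0.18, is wide at this depth.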
